A study of Homo sapiens with 15 samples.

Results

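The array assays of 7 nuclear proteins, CHD4, MTA1, CTBP1, SET, EWSR1, TCF20 and PNN, were examined in MDA-MB-231 cells and in MDA-MB-468 cells, 2 human lines of triple-negative breast cancer, exposed to the conditioned medium (CM) of macrophages. The genes were taken by name, for their role in chromatin or transcription, out of the 84 target genes of a Tumor Metastasis RT2 Profiler PCR array, a plate of SYBR Green quantitative PCR assays. The macrophages were monocyte-derived macrophages (MDM) from blood of human donors that had themselves been primed with CM of one or the other cancer line. Per the labels there were 3 MDA-MB-231 samples that received CM beside 4 that stayed unstimulated, and for MDA-MB-468 4 of each kind, and the series' design text gives an exposure of 24 h, whereas a legend in the paper gives a shorter time. Both are established lines from breast cancers that lack the estrogen, progesterone and HER2 receptors. Which line's CM primed the MDM of a given sample is not in the labels, and nothing in them ties a sample to a donor. Ratios give no levels, so the identity of the cells could not be checked against marker genes.

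The 7 proteins act at different steps of gene expression. CHD4 is the ATP-dependent remodeler of the nucleosome remodeling and deacetylase complex (NuRD), which removes acetyl groups from histones, and MTA1 is the NuRD subunit that holds the histone deacetylases. CTBP1 is a corepressor recruited to DNA by repressors of the ZEB family, which silence the epithelial adhesion gene CDH1. SET is a histone chaperone, part of the complex that inhibits histone acetylation, and an inhibitor of protein phosphatase 2A. EWSR1 is an RNA-binding protein that takes part in transcription and splicing, TCF20 is a transcriptional coregulator, and PNN (pinin) is found in nuclear speckles and at desmosomes and counteracts the repression of CDH1 by CTBP1.

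The upstream sequences of SET, EWSR1 and MTA1 are given here because SET and EWSR1 were the members below 1 in all 6 comparisons and MTA1, a NuRD subunit that was not called, stands for comparison. Each is the 250 bases before a RefSeq transcript start in build GRCh38.p14, plus strand. All 7 members matched the RefSeq promoter table, with 14 start windows in all, 5 of them for SET. The SET window shown is the one that holds both motifs and the larger number of GC boxes. Capitals mark GC boxes (GGGCGG) and CCAAT boxes (CCAAT), each searched on both strands, so that CCGCCC and ATTGG also count.
SET, chr9:128688972-128689221: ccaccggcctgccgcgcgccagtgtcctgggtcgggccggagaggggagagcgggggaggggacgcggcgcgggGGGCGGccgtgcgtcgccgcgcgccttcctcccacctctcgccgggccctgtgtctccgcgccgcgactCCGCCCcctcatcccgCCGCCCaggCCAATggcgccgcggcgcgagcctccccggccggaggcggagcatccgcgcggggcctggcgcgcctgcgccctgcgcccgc
EWSR1, chr22:29268018-29268267: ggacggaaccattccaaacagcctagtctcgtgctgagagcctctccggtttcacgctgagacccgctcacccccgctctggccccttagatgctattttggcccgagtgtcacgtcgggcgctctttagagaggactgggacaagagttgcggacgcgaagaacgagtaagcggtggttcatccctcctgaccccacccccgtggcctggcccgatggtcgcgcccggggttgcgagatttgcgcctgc
MTA1, chr14:105419577-105419826: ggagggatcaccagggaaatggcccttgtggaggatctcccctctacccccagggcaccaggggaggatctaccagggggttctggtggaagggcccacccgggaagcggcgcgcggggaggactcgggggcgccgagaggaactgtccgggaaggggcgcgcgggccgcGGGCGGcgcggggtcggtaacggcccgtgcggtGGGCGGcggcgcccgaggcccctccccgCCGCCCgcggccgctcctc

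The SET window held 3 GC boxes and 1 CCAAT box, the MTA1 window 3 GC boxes and no CCAAT box, and the EWSR1 window neither. Over the 14 member windows, 9 held a GC box and 6 a CCAAT box, against 42.6% and 32.0% of all 35116 windows of this length. The windows shown were 82.8% (SET), 76.8% (MTA1) and 62.8% (EWSR1) G and C, beside 58% in the median window. A match describes the letters of the window only.

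Measurements are fold changes, the linear ratio of cells with CM to unstimulated cells in 1 comparison, put on the scale of ACTB for MDA-MB-231 and of RPLP0 for MDA-MB-468. There were 3 numbered comparisons per line, named here by their unstimulated sample as control 2, control 3 and control 4. The column headers give CM sample 3 to the comparison with control 3 and also to the one with control 4, so these are not shown to be independent, and no test of a gene against no change was run. The headers of the MDA-MB-468 comparisons name an MDA-MB-231 control, although the paper pairs the values with unstimulated MDA-MB-468, and that reading is used here. Raised genes are those with a geometric mean fold change of more than 2 and each comparison above 1. Lowered genes are those with a geometric mean of less than 0.5 and each comparison below 1. The quantity of each transcript is not known from ratios, and fewer cells of a kind cannot be told apart from less RNA per cell.

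SET was lowered in MDA-MB-231 and was the only member called in either line, with no member raised. Of the 7 members 1 was lowered in MDA-MB-231, against 3.57% of the 84 target genes, and 0 were raised, against 31%. For MDA-MB-468 both counts were 0 of 7, against 3.57% lowered and 27.4% raised. Most of the array also lay between 0.5 and 2, which held 65.5% of the target genes for MDA-MB-231 and 69% for MDA-MB-468.

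The fold change of SET in MDA-MB-231 was 0.396 with control 2, 0.228 with control 3 and 0.652 with control 4. All 3 were below 1, the lowest with control 3, and the geometric mean was 0.389, or -1.36 ± 0.76 on the log2 scale (SD, n = 3 comparisons). In MDA-MB-468 the fold change of SET was 0.876, 0.830 and 0.456 with the same controls, with a geometric mean of 0.692 and a log2 value of -0.53 ± 0.52 (SD, n = 3). The lines overlapped, because the value of 0.456 in MDA-MB-468 lay between those with controls 2 and 4 in MDA-MB-231. Without the comparison with control 3 the geometric mean of SET in MDA-MB-231 was 0.508 and the call was lost.

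A position among the 84 target genes needs no reference gene. Counted from the lowest fold change, SET held ranks 3, 2 and 3 in MDA-MB-231 and ranks 20, 14 and 31 in MDA-MB-468, in the order of controls 2, 3 and 4. All ranks in MDA-MB-231 were thus lower than any in MDA-MB-468, and SET was near the bottom of the array in one line and in its lower part in the other.

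**Figure D1:**
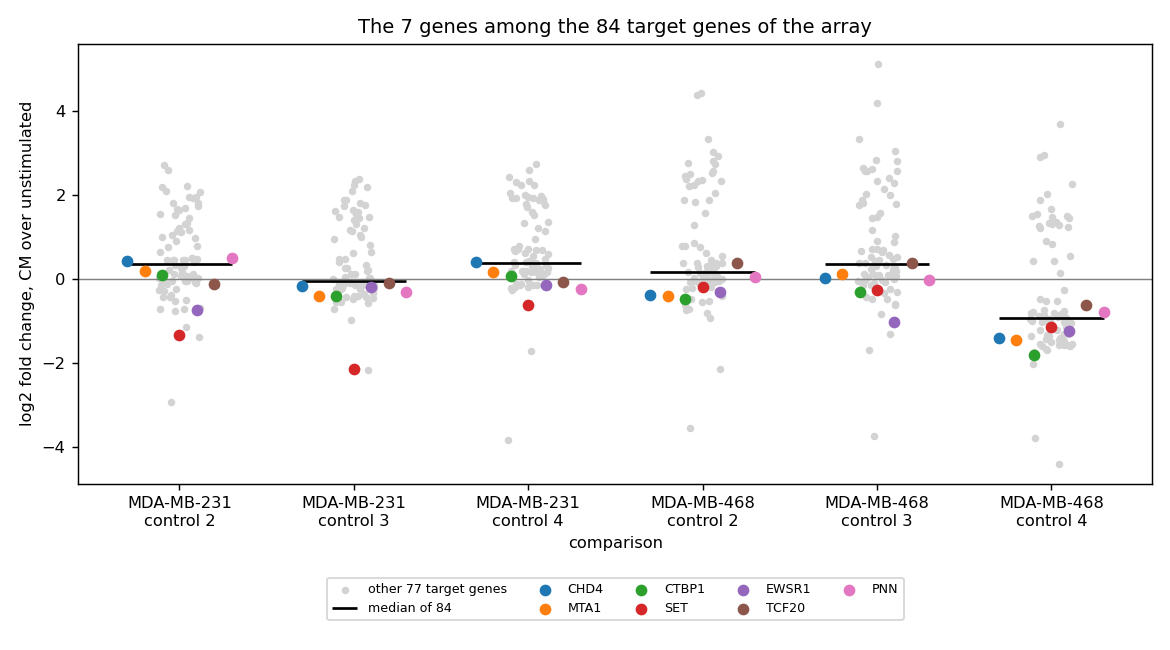
Log2 fold change (vertical axis) of the 84 target genes in each of the 6 comparisons (horizontal axis), with the 7 genes in colour, the other 77 in grey with a random sideways shift, and the median of the 84 as a black bar. SET lies among the 3 lowest genes in each MDA-MB-231 comparison, and the whole array with control 4 in MDA-MB-468 sits lower, with a median of -0.92.

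EWSR1 was below 1 in each comparison of both lines but was not called in either. The fold changes of EWSR1 in the MDA-MB-231 line were 0.599, 0.879 and 0.903 with controls 2, 3 and 4, with a log2 mean of -0.36 ± 0.33 (SD, n = 3). In MDA-MB-468 it was 0.805, 0.495 and 0.425, with a log2 mean of -0.85 ± 0.48. The value of 0.805 with control 2 lay above that of 0.599 in MDA-MB-231, so the lines overlapped. SET and EWSR1 were the 2 of 7 members below 1 in all 6 comparisons, against 8.33% of the target genes. With another housekeeping gene as the reference EWSR1 no longer kept this pattern everywhere. Of the 6 housekeeping references, 1 put EWSR1 below 1 in every MDA-MB-231 comparison, and 4 did so in MDA-MB-468. SET was below 1 throughout on 6 of 6 in MDA-MB-231 and on 3 of 6 in MDA-MB-468.

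The NuRD members had like values in each comparison, and neither was called. CHD4 had fold changes of 1.34, 0.885 and 1.32 in MDA-MB-231 and of 0.764, 1.01 and 0.376 in MDA-MB-468, in the order of controls 2, 3 and 4. MTA1 had 1.15, 0.753 and 1.13 in MDA-MB-231 and 0.759, 1.08 and 0.364 in MDA-MB-468. In both genes the comparison with control 3 was the low one in MDA-MB-231 and the high one in MDA-MB-468, each gene had values on both sides of 1 in each line, and the lines overlapped. For CHD4 in MDA-MB-231 the value below 1 was found with ACTB and with none of the other 5 housekeeping references. The log2 means were 0.22 ± 0.34 and -0.59 ± 0.74 for CHD4 and -0.01 ± 0.35 and -0.58 ± 0.80 for MTA1, with MDA-MB-231 named first (SD, n = 3 each).

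CTBP1, the corepressor, had fold changes of 1.06, 0.754 and 1.05 in MDA-MB-231, on both sides of 1, with a log2 mean of -0.08 ± 0.28 (SD, n = 3). In MDA-MB-468 it had 0.717, 0.809 and 0.286, all below 1, with a log2 mean of -0.86 ± 0.82. The lines overlapped, through the value of 0.809 above that of 0.754. CTBP1 and EWSR1 were the members with the lowest means in MDA-MB-468, with geometric mean fold changes of 0.550 and 0.554, just above the threshold of 0.5. Both were counted as lowered without the comparison with control 2, which left means of 0.481 and 0.459, and CTBP1 alone was without control 3, with 0.453. They were also counted on the scale of all 5 housekeeping genes, that of the deposited ratios, at 0.467 and 0.470. The lowered target genes of the array went from 3 to 9, 10 and 11 of 84 under the same settings. In MDA-MB-468 B2M itself had a mean of 1.91 on the log2 scale of RPLP0. ACTB stood at -0.22, GAPDH at -0.21 and HPRT1 at -0.30. With B2M left out of the housekeeping mean, CTBP1 and EWSR1 were at 0.624 and 0.628 and were not counted.

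TCF20 was the member with the smallest spread in MDA-MB-231, where its fold changes were 0.927, 0.937 and 0.952 and the log2 mean -0.09 ± 0.019 (SD, n = 3). All were below 1 by less than the shift between reference genes, and the mean turned above 1 with RPLP0, at 0.11 on the log2 scale. In MDA-MB-468 it had 1.31, 1.31 and 0.648, with a log2 mean of 0.05 ± 0.58, the last with control 4. PNN had 1.42, 0.805 and 0.848 in MDA-MB-231 and 1.03, 0.981 and 0.576 in MDA-MB-468, with log2 means of -0.01 ± 0.45 and -0.26 ± 0.46. PNN thus lay on both sides of 1 in each line, and for both genes the values of the lines overlapped.

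**Figure D2:**
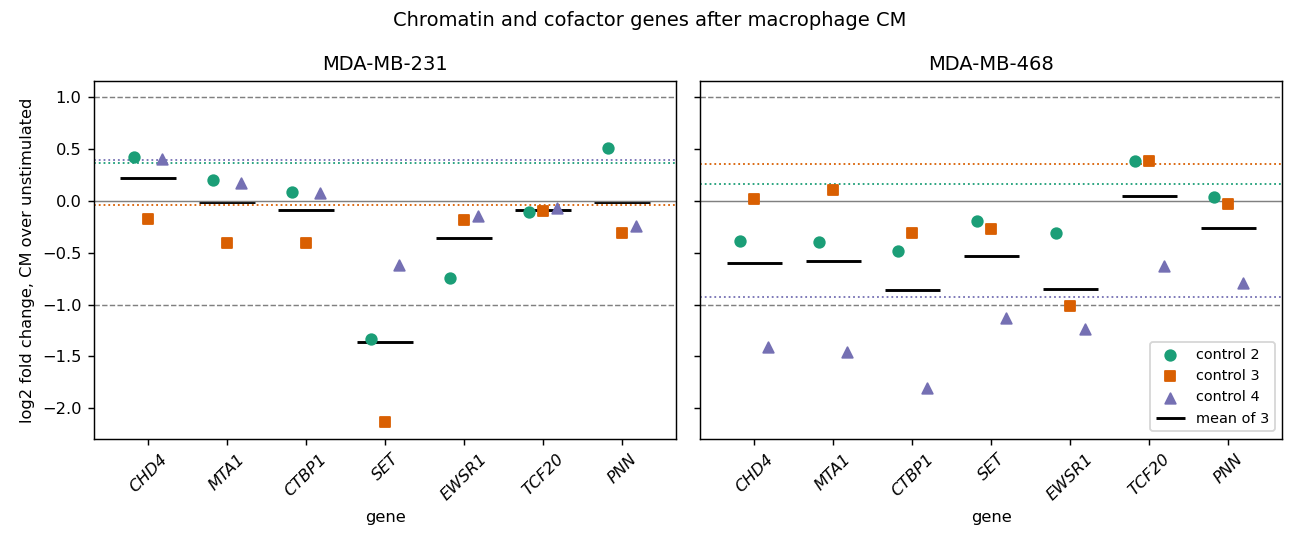
Log2 fold change of CM over unstimulated (vertical axis) for the 7 genes (horizontal axis) in each comparison, with the mean of 3 as a black bar, the median of the 84 target genes in the same comparison as a dotted line in its colour, and dashed lines at the 2-fold thresholds. SET in MDA-MB-231 is the one mean past a threshold, at -1.36, and in MDA-MB-468 all 7 genes have their lowest value with control 4.

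Counted together, 3 of 7 members were below 1 in every comparison of MDA-MB-231 (SET, EWSR1 and TCF20), against 15.5% of target genes. With ACTB replaced by any of the other 5 housekeeping references this was SET alone, 1 of 7, against 3.57% to 8.33%. In MDA-MB-468, 3 of 7 were (CTBP1, SET and EWSR1), against 22.6%, and the count ran from 0 of 7 with HPRT1, against 5.95%, to 6 of 7 on the deposited scale of 5 housekeeping genes, against 41.7%. Without B2M that scale gave 2 of 7, against 11.9%. No member was above 1 in every comparison of either line, where 42.9% and 28.6% of target genes were. On each of the 5 housekeeping references other than ACTB, CHD4 was above 1 throughout MDA-MB-231, joined by TCF20 with RPLP0, against 41.7% to 59.5% of target genes. The median of the members' mean log2 fold changes was -0.08 in MDA-MB-231, beside 0.13 over all 84 genes, and -0.58 in MDA-MB-468, beside -0.16. MTA1, CTBP1, SET and EWSR1 lay below the median of the 84 genes in all 6 comparisons, 4 of 7 against 17.9% of target genes.

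The comparisons differed as wholes. In MDA-MB-468, 7 of 7 members were lowest with control 4, as were 90.5% of the target genes, and the median of the 84 genes was 0.17, 0.35 and -0.92 on the log2 scale with controls 2, 3 and 4. The mean of the positive PCR control wells, which hold a fixed template, was 1.01, 0.17 and -1.20 in the same order and scale, so that it was also lowest with control 4. Being divided by RPLP0 like every other well, this value takes in the RPLP0 of the samples as well as the PCR. In MDA-MB-231, 5 of 7 members and 54.8% of target genes were lowest with control 3, where the array median was -0.04 beside 0.37 and 0.39. The positive control wells there read 0.37, 0.05 and 0.79 with controls 2, 3 and 4. The part of PCR performance or of the reference gene in these shifts was not tested.

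A difference between members within a comparison cancels both the reference gene and such whole-array shifts. SET minus the mean of the other 6 members was -1.40, -1.87 and -0.65 on the log2 scale in MDA-MB-231, and 0.00, -0.13 and 0.09 in MDA-MB-468, with controls 2, 3 and 4. The values of MDA-MB-231 all lay below those of MDA-MB-468. The means were -1.31 ± 0.62 and -0.01 ± 0.11 (SD, n = 3 each), and the difference of -1.29 had p = 0.1 in a 2-sided exact permutation test, the smallest p that 3 against 3 allows. This test takes the 3 comparisons of a line as separate units, which the shared CM sample in the headers does not show them to be, so here and in what follows its p may be too small. Set against single members, SET gave values of MDA-MB-231 below those of MDA-MB-468 without overlap for 5 of the 6. It did so for 51 of all 83 other target genes, 61.4%, and 11 of the 84 genes, SET among them, did so for as many or more. The widest gap was with CHD4, where SET was 1.02 to 1.96 lower on the log2 scale in MDA-MB-231, and between 0.29 lower and 0.28 higher in MDA-MB-468. With PNN the gap between the lines was narrow, from -0.38 to -0.34. SET minus TCF20 overlapped, at -1.23, -2.04 and -0.54 in MDA-MB-231 and -0.58, -0.65 and -0.51 in MDA-MB-468.

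Of the other members on this measure, CHD4 stood at 0.54 ± 0.12 in MDA-MB-231 and -0.09 ± 0.25 for MDA-MB-468, and CTBP1 at 0.19 ± 0.06 and -0.40 ± 0.27 (SD, n = 3 each). TCF20 stood at 0.18 ± 0.29 and 0.66 ± 0.03. The values of the lines did not overlap for these genes either, with exact permutation p = 0.1 for each, and CHD4 and CTBP1 were relatively higher in MDA-MB-231 and TCF20 relatively higher in MDA-MB-468. Since the 7 values of a comparison are set against each other, the low value of SET by itself raises the other members in MDA-MB-231. MTA1, EWSR1 and PNN overlapped between the lines. The 4 of 7 members without overlap compare with 39.3% of the target genes set against the members' mean in the same way.

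**Figure D3:**
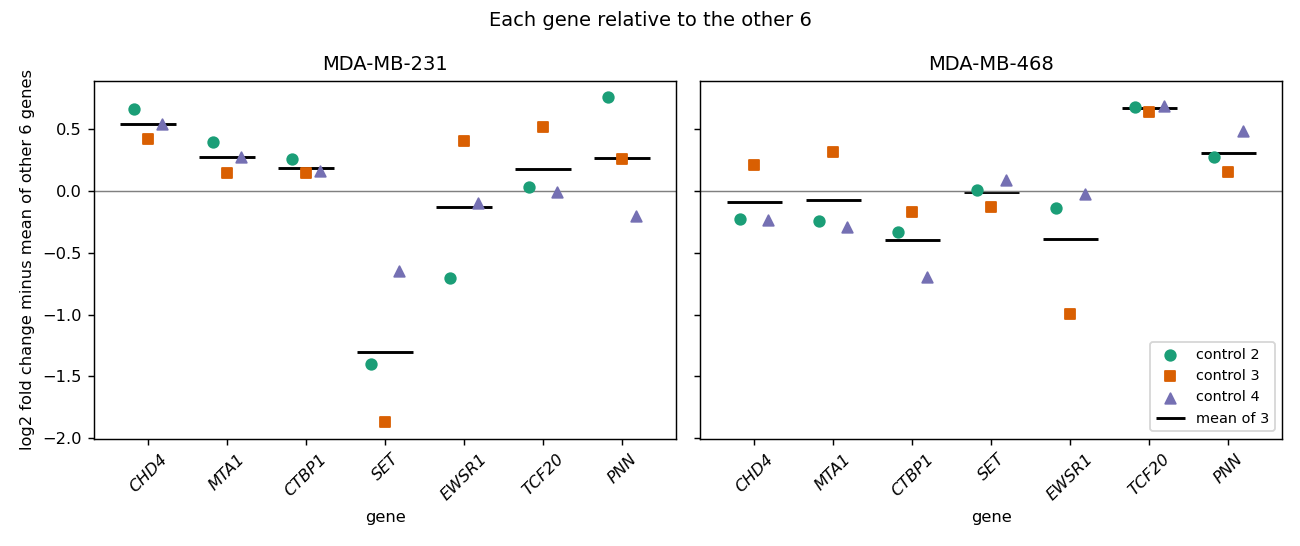
Log2 fold change of each gene minus the mean of the other 6 in the same comparison (vertical axis), by gene (horizontal axis) and line, with the mean of 3 as a black bar. SET spans -1.87 to -0.65 in MDA-MB-231 but -0.13 to 0.09 in MDA-MB-468, and TCF20 is tightly grouped at 0.66 in MDA-MB-468.

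On the reference-gene scale, none of the 7 members had values that did not overlap between the lines, whereas 23.8% of the target genes did. With RPLP0 in both lines CHD4 and CTBP1 did not overlap, 2 of 7 against 31% of target genes. The same pair did not on the scale of all 5 housekeeping genes, against 39.3%, and CTBP1 alone did not on that of the 4 without B2M, against 25%. The difference in mean log2 fold change, MDA-MB-231 minus MDA-MB-468, was -0.83 for SET, 0.81 for CHD4, 0.78 for CTBP1 and 0.50 for EWSR1, each with exact permutation p = 0.2. It was 0.57 for MTA1 (exact permutation p = 0.3), 0.25 for PNN (exact permutation p = 0.6) and -0.14 for TCF20 (exact permutation p = 1). After Benjamini-Hochberg adjustment over the 84 genes no value could pass, the smallest unadjusted p being 0.1. With the median of the 84 genes as the reference, a choice made after the data had been seen, the lines did not overlap for SET, CHD4, CTBP1 and TCF20, which is 4 of 7 against 41.7% of target genes. SET and TCF20 were the lower ones in MDA-MB-231, 2 of 7 against 26.2%. The difference for SET was then -1.21 (exact permutation p = 0.1, Benjamini-Hochberg adjusted p = 0.24).

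How closely the members tracked each other was described by the SD, over the 6 comparisons, of the difference of their log2 fold changes. It was 0.11 for CHD4 and CTBP1, 0.14 for CHD4 and MTA1 and 0.16 for MTA1 and CTBP1, with a median of 0.65 over the 3486 pairs of target genes. Of all pairs, 0.0287%, 0.430% and 0.861% were as tight or tighter, so that the corepressor and the remodeler were the tightest pair of the array. CHD4 was between 0.09 and 0.39 above CTBP1 on the log2 scale in every comparison. CHD4 and SET formed the widest of the 21 pairs of members, with an SD of 0.97, and 77.0% of all pairs were as tight or tighter than that. The 6 points share plates, cDNA and, in part, CM samples, and the SD of a pair takes in its assay noise, so it is a description without a test.

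Likeness of pattern was measured by the Euclidean distance between log2 fold changes over the 6 comparisons. The nearest gene to CHD4 was MTA1, at 0.409, and the next MDM2, at 0.496. For MTA1 the order was MDM2 at 0.336 and COL4A2 at 0.398, and for CTBP1 it was NME1 at 0.482 and MTA1 at 0.567. PNN was nearest to TGFB1 at 0.414, and TCF20 to SSTR2 at 0.478. EWSR1 had its nearest gene, FXYD5, at 0.880, and SET had the same gene at 1.90, a distance that no other member's nearest gene reached.

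**Figure D4:**
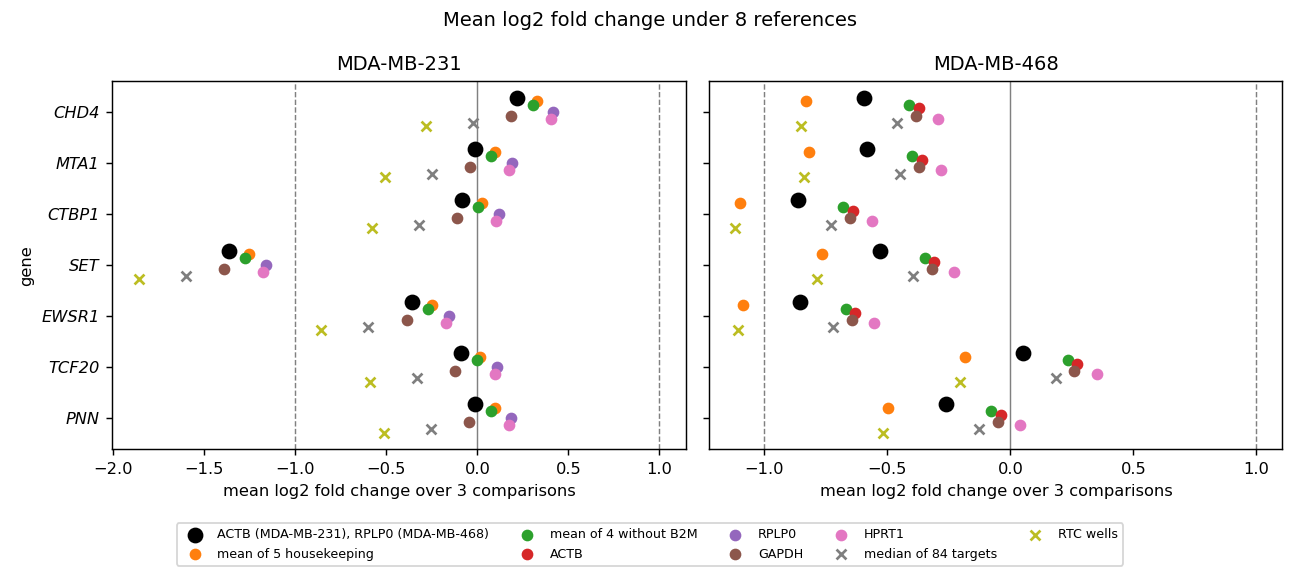
Mean log2 fold change over 3 comparisons (horizontal axis) of each gene (vertical axis) under 8 references, with the main reference in black, other housekeeping references as coloured dots, and the array median and reverse transcription control (RTC) wells as crosses. SET in MDA-MB-231 is left of the dashed line at -1 under all 8, and the other genes there lie between -0.86 and 0.42, the lowest values being those with the RTC wells.

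Across 6 housekeeping references, the main one included, the geometric mean fold change of SET in MDA-MB-231 ranged from 0.381 to 0.447, as the plot of references shows. In MDA-MB-468 it ranged from 0.588 to 0.852. CTBP1 and EWSR1 in MDA-MB-468 were below 1 on average with all 6, at 0.467 to 0.677 and 0.470 to 0.682. MTA1, CTBP1, TCF20 and PNN in MDA-MB-231 had means on both sides of 1 depending on the reference, as did TCF20 and PNN in MDA-MB-468.

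Genes of related function on the plate were set beside the members. Among 9 other transcription factors and regulators, 2 were raised and 1 was lowered in each line. Raised were the nuclear receptors NR4A3, at 2.64-fold in MDA-MB-231 against 2.21-fold in MDA-MB-468, and RORB, at 2.58-fold and 3.85-fold. The lowered gene was SMAD4, the common mediator of TGF-beta signaling, at 0.127-fold and 0.172-fold. Of the 2 further corepressors, BRMS1, a subunit of a histone deacetylase complex, was not called in either line, at 0.813-fold and 0.675-fold. RB1, which recruits chromatin modifiers to E2F targets, was lowered in MDA-MB-468 at 0.0672-fold and not called in MDA-MB-231 at 0.841-fold. Since ratios give no levels, it is not known whether SMAD4 and RB1 were above the limit of detection in either line. Their low values may therefore be ratios of signals near it.

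CDH1, the gene on whose promoter CTBP1 and PNN are known to act in opposite ways, had geometric mean fold changes of 1.51 in MDA-MB-231 and 1.39 for MDA-MB-468 and was not called. On the log2 scale these were 0.59 ± 0.56 and 0.47 ± 0.89 respectively (SD, n = 3 each), above 1 in every comparison of MDA-MB-231 only. The 12 other genes of the plate with a general role in cell maintenance held no called gene in either line, with medians of 0.12 and -0.39 on the log2 scale beside -0.08 and -0.58 for the 7 genes. Of 15 genes that macrophages are known to express, 5 were raised in MDA-MB-231 against 4 in MDA-MB-468 and none was lowered. The medians were 0.31 and -0.15 on the log2 scale. These shares raised, 33.3% and 26.7%, were near those of the whole array, 31% and 27.4%. RNA carried over from the MDM could bring such transcripts, but ratios do not show which cells made them. The part of carried-over RNA in the members' values was not tested.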

How the data were processed

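RNA of 15 samples was reverse transcribed and measured on the PCR array, which per the labels uses SYBR Green. The authors analyzed threshold cycles with GeneGlobe and deposited linear ratios (fold changes) of CM over unstimulated, scaled to the mean of 5 housekeeping genes, as 6 numbered comparisons and 2 unnumbered columns. The latter equaled the geometric mean of the 3 comparisons of a line (largest difference 0.000188, log2). Wells were paired with symbols through the study's plate layout. The 16 columns of threshold cycles carry names that match no label and were not used, so depth is unknown and the number of comparisons limits the precision. Here each ratio was divided by that of ACTB (MDA-MB-231) or RPLP0 (MDA-MB-468) in its comparison, the scale of the study's supplementary fold changes, and log2 was taken without a pseudocount.

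The limma fit planned on single samples or independent comparisons was not run, since neither was available. Calls used the fold change rule given with the results. It was tried on simulated data, drawn as independent comparisons with no shared CM sample and no shift of a whole array. That does not give its error rate on these data. Lines were compared by exact 2-sided permutation tests. Alternatives were other references, other thresholds and leaving out comparisons. The 7 genes and all lists were chosen with earlier results of these data known. The 2 nearest genes were named per member, with the exception of genes not reported here. Samples carry numbers in the labels, and nothing says that they are separate cultures. Python 3.11.15, numpy 2.4.6, pandas 2.3.3 and matplotlib 3.10.9 were used.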

Additional observations from a re-analysis of the deposited data

How the results depend on the processing

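Over 407 recomputed values, 377 were counted as unchanged and 30 moved. Fold changes and medians had to stay within the spread of the comparisons, and counts within 1.5 times. The unchanged values include, by construction, those of each line on its own main reference gene. They also include every difference between the lines, PNN and TCF20 with their changes of sign among them. The rule for these needed a smaller p than 3 against 3 allows, so they could not be counted as moved. No call was turned to the other side. SET in MDA-MB-231 ranged from -1.86 to -0.98 (log2), and members raised stayed at 0 in both lines. Requiring every comparison past the threshold left 0 members and 1 target gene lowered in MDA-MB-231. A threshold of 1.5 gave 2 members and 14 target genes lowered in MDA-MB-468, and the mean of 5 housekeeping genes gave 2 and 11. Without B2M that mean gave 0 and 3. Leaving out 1 comparison gave 0 to 1 members lowered in MDA-MB-231, 0 to 2 in MDA-MB-468 and 2 to 10 target genes lowered there. It was the comparison with control 3 that ended the call of SET in MDA-MB-231, and leaving out controls 2 or 3 that added calls of CTBP1 and EWSR1 in MDA-MB-468, where those with control 4 are the low ones. TCF20 in MDA-MB-231, with its narrow spread, moved to 0.017 with the mean of 5 housekeeping genes, -0.0029 without B2M, 0.11 with RPLP0, -0.12 with GAPDH, 0.094 with HPRT1 and -0.33 with the median of the 84 genes. The members' median in MDA-MB-231 moved to 0.12 with RPLP0 and -0.32 with the array median.

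The array median and the reverse transcription control (RTC) wells were added as references after seeing the data. The 3 RTC wells hold the same value in each comparison, which the target gene CDKN2A also has in 2 of them, within 0.0001 (log2), so it is not known whether they were measured or set at a limit of detection. With the RTC wells the values in MDA-MB-231 were -0.28 for CHD4, -0.51 for MTA1, -0.58 for CTBP1, -0.86 for EWSR1, -0.59 for TCF20 and -0.51 for PNN. The members' median was -0.58 and that of all 84 genes -0.36, with 16 target genes raised. In MDA-MB-468, 2 members (CTBP1 and EWSR1) and 12 target genes were lowered. The difference between the lines turned sign for PNN (-0.13 to 0.59) and TCF20 (-0.52 to 0.20), and for no other member.

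Deviations of same-numbered comparisons from their line's mean correlated at -0.30, -0.06 and -0.23 across target genes between the lines, so the numbers were not taken to pair the samples. With the replicate number as a block the line differences were the same (SET -0.83, CHD4 0.81), with a sign-flip test that cannot go below p = 0.25 in an exact enumeration. The t-test of the methods, a floor on threshold cycles and a block within a line were not run, since they need single-sample values.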
